A study of Mus musculus with 4 samples.

Results

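The contractile and smooth muscle genes examined here are Acta2, Actg2, Tagln, Cnn1, Cald1, Myl9, Tpm1, Myh11, Des and Tnnt2, 10 of the 12393 genes that the array measured with a probe set of 1 gene symbol. They were chosen by symbol in the platform annotation, as genes that depend on serum response factor (SRF) together with troponin T2, and every probe set of theirs was taken. They have 18 of the 22690 probe sets on the array. RNA of CH10T1/2 cells, mouse embryo fibroblasts from which muscle, fat, bone or cartilage cells can be obtained, was measured on 4 Affymetrix arrays, 1 per group. The groups were cells stably transfected with the R150C variant of PTHR1 and given 1e-07 M PTHrP for 1 h, the same R150C line with carrier, cells stably transfected with wild-type PTHR1 and given PTHrP in the same way (the WT line), and the WT line as control. PTHR1 is the receptor for parathyroid hormone and PTHrP, and the R150C variant comes from enchondromas, per the labels. All cells were kept overnight without serum. The WT control array is labelled control alone, with carrier named for it in the design text. Each receptor is represented by 1 transfected line, so receptor and line cannot be told apart. Whether a line is 1 clone, and how strongly it makes the receptor, is not stated in the sources used here.

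Smooth muscle contracts when myosin, switched on through its regulatory light chain, pulls on actin filaments that tropomyosin, caldesmon and calponin decorate. Fibroblasts carry part of this apparatus in their stress fibres, and the genes for it are classic targets of SRF, a transcription factor that binds the CArG box and works with the actin-sensing cofactors of the MRTF family or with myocardin. Troponin T2 belongs to the thin filament of heart muscle and is not part of the smooth muscle apparatus. Receptors of this kind signal through Gs to cyclic AMP and through Gq.

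Promoter sequence shows which members carry the SRF motif close to a start site. RefSeq windows (build GRCm38.p6, 250 bases before to 50 after a start) were held for 7 of the 10 genes, in 9 windows, since Cald1 and Tnnt2 each had 2. Actg2, Tagln and Myh11 were not matched. A CArG box on either strand stood in 1 of the 9 member windows, that of Myl9, against 1.63% of all 32851 windows. Acta2 and Myl9 held CArG boxes with 1 inner base other than A or T, 2 in Acta2 and 1 in Myl9, a form found in 8.5% of all windows and searched for after the sequences had been read. CATTCC, the motif of TEAD factors, was found on either strand in windows of Acta2, Cald1, Tpm1 and Tnnt2, against 14.7% of all windows. The motif TGACG, the core of the cyclic AMP response element that CREB binds, stood in windows of Cald1, Tpm1 and Des, against 20.8% of all windows, and the full TGACGTCA in none of the members' windows, against 1.79%. The E-box CANNTG, which overlaps other motifs freely, was in each member window and in 72.3% of all windows. Such a match describes letters and is not a bound site. The 4 stretches below, all upstream of the start and written 5′ to 3′ along the gene, are shown because they hold these motifs in Srf itself and in the members Myl9, Acta2 and Tnnt2. Capitals mark both forms of the CArG box in the first 3 and CATTCC in the last.
Srf (chr17:46556185-46556274, minus strand): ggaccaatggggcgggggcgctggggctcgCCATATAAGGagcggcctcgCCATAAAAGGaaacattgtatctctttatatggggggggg
Myl9 (chr2:156775273-156775404, plus strand): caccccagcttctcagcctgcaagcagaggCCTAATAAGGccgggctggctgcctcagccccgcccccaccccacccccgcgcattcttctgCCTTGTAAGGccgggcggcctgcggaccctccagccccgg
Acta2 (chr19:34255374-34255487, minus strand): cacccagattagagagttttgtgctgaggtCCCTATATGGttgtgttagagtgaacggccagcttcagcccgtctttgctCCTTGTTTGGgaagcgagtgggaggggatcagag
Tnnt2 (chr1:135836227-135836313, plus strand): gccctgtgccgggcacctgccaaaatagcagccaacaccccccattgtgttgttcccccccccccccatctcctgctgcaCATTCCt

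The value of a probe set is its deposited signal, a fluorescence intensity on a linear scale, and a gene's level was not inferred from its probe set's brightness relative to another's. Differences below are on the scale log2(signal + 16) after centring each array on the median of the tested probe sets, which understates changes of dim genes. A probe set was tested if its mean on that scale was at least the median of all those with 1 symbol, which turned back is a signal of 49.3, and 10190 probe sets of 6795 genes passed. Of the 18 member probe sets 11 passed, covering 7 genes, and all those of Cnn1, Myh11 and Des fell below. Des 1426732_at, at a signal of 49.1 by the same mean, lay just under the filter, and Tnnt2 1424967_x_at, at 87.9, was the lowest member above it. Differences between single arrays have no test and were counted at 2-fold. The spread of such a difference was estimated from how far the line differences in both media depart from each other, and had a robust SD of 0.25 over the tested probe sets and 0.34 over those below the filter. The effect common to both media was tested with limma (additive model of receptor and treatment, Benjamini-Hochberg adjustment over all tested probe sets, called at an adjusted p under 0.05), with 1 residual degree of freedom. limma also drew the variance of each probe set toward 1 value for all tested probe sets, with 22 prior degrees of freedom. Its SEs and p-values therefore rest mostly on scatter pooled over probe sets and little on a member's own. Nothing says that arrays stand for separate cultures, so limma's p-values cover no more than the scatter among the 4 arrays.

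The arrays differed in the balance of RNA ends. Median signal was 45.8 and 48.1 in the R150C line (PTHrP, carrier) and 44.7 and 52.2 in the WT line (PTHrP, control). For the beta-actin control probe sets, 3′ over 5′ signal was 2.31 and 2.13 in the R150C line, against 2.39 and 1.42 in the WT line, lowest in the WT control. For Gapdh the same ratio was 1.21 and 0.991 in the R150C line, against 1.17 and 0.845 in the WT line, higher in both PTHrP arrays than in the other two. Fibroblast markers were compared between the lines, which cannot check the label of a fibroblast line itself. Of 14 markers 11 were tested and 0 were called between the lines by limma (unadjusted p under 0.05, 0 higher and 2 lower). Their summed signal was 32124.2 and 34711.9 in the R150C line, against 41426.0 and 36948.9 in the WT line. Their median signal was 485.6 and 507.9 in the R150C line, against 483.7 and 501.5 in the WT line. The fibroblast markers Dcn, Lum and Fap lay below the filter. Of 57 array-covered markers of endothelial, blood, epithelial, neural, cartilage, bone and fat cells 9 were tested and 0 were called by limma (unadjusted, 1 higher and 0 lower). A lack of calls between the lines does not show that such markers were absent. The brightest of the 9, the cartilage gene Col2a1, read 1153.9 and 1481 in the R150C line, against 1384.9 and 1105.9 in the WT line. The summed signal of the endothelial markers was 257.7 and 314.0 in the R150C line, against 195.1 and 218.6 in the WT line. Of these, Flt1 was the 1 tested, at 68.8 and 102.6 in the R150C line, against 53.7 and 58.7 in the WT line (line effect 0.47, limma's adjusted p 0.126). Below the filter, Kdr, Esam, Cdh5, Emcn and Sox17 each had both R150C signals above both WT signals. The share of all probe sets below the filter with this pattern was not counted. Of the tested ones 23% had it on the centred scale. Esam, for one, read 31.7 and 17.2 in the R150C line, against 6.8 and 6.1 in the WT line. Pecam1, Tek, Tie1 and Vwf, also below it, overlapped between the lines, and Tie1 and Vwf read between 0.6 and 1.4 in the 4 arrays. Untested markers of other cell types separated as well, in either direction. The cartilage gene Hapln1 read 14.7 and 15.1 in the R150C line, against 4.4 and 1.4 in the WT line. The fat cell gene Cebpa read 22.5 and 16.4, against 80.6 and 58.9, and the neural gene Tubb3 15.3 and 16.2, against 33.8 and 33.7. The part of these markers in the results below was not tested.

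**Figure D1:**
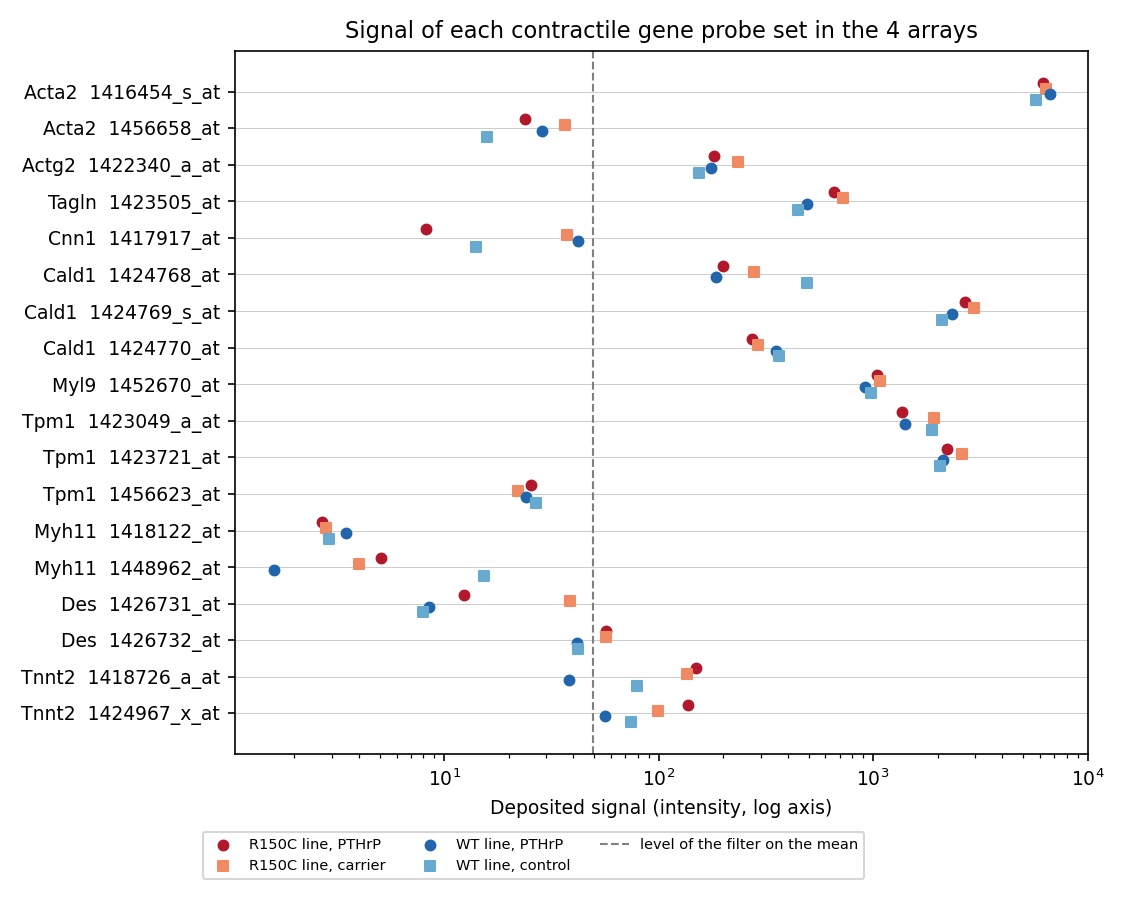
Deposited signal (log axis) of each of the 18 probe sets of the contractile genes, 1 point per array and 4 arrays, with the R150C line in red and orange and the WT line in blue. The dashed line marks the signal of 49.3 at which the filter on the mean lies; both Tnnt2 probe sets have the R150C points to the right of the WT points, while the points of Acta2 1416454_s_at and Myl9 lie close together.

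The comparison of the lines asked which contractile genes differ between cells with the variant and cells with the normal receptor. Tnnt2, the cardiac troponin T gene, was higher in the R150C line by both of its probe sets, and no tested probe set of the actin, transgelin, caldesmon, light chain or tropomyosin genes was called. limma called 2 of the 11 tested member probe sets higher and 0 lower, against 5.27% and 4.1% of all tested probe sets, and at an unadjusted p under 0.05 the member counts were 3 and 0, where 2222 of all 10190 had such a p in either direction. The median line effect over the 11 was 0.19, beside -0.04 over all 10190. It was not even between media: the median difference was 0.08 under PTHrP and 0.36 without it, beside -0.05 and -0.01. In all 4 scalings of the arrays the members called numbered 1 higher, a Tnnt2 probe set, and 0 lower, against 2.91% and 1.27%. In bulk RNA like this, fewer cells making a transcript and less of it per cell cannot be told apart.

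Tnnt2 1418726_a_at read 150 and 136.1 in the R150C line (PTHrP, carrier), against 38.4 and 79.5 in the WT line (PTHrP, control). Both R150C arrays lay above both WT arrays, and the lowest value was that of the WT line under PTHrP. Its line effect was 1.13 (SE 0.20), 2.19-fold on that scale, with limma's adjusted p 0.000471 and at most 0.0431 over 4 scalings. By medium the difference was 1.58 under PTHrP and 0.68 without it. The second probe set, 1424967_x_at, read 137.8 and 99.5 in the R150C line, against 56.3 and 74.6 in the WT line. It put the arrays in the same order as the first, lowest in the WT line under PTHrP, then WT control, R150C carrier and R150C under PTHrP. Its line effect was 0.71 (SE 0.19) with limma's adjusted p 0.0185, a call lost without centring (0.115), after quantile normalization (0.0504), with a pseudocount of 64 (0.0514), with no filter (0.0944) and without the treatment term (0.0935). Over these and the other alternatives its line effect stayed between 0.49 and 0.84. The suffix x marks probes that can match other sequences, in Affymetrix's naming. PTHrP and control arrays of 1 line, neighbours in this order, differed by less than 2 robust SDs (0.51) in both probe sets of the R150C line and in the second of the WT line; in the first the WT difference was -0.76.

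Most other striated muscle genes lay below the filter. Of 38 further sarcomere genes on the array, among them the other troponins, 3 were tested and 35 lay below. This list and those further on were chosen with earlier results of these data known. By limma 1 was higher and 0 lower (unadjusted, 1 and 0), against 5.55% and 3.77% of all tested genes by their brightest tested probe set. One of the 3 was called: Ankrd1, a nuclear and sarcomeric protein of muscle that also responds to stretch and YAP, read 144.9 and 264.2 in the R150C line, against 48.9 and 76.3 in the WT line. Its line effect was 1.45 (SE 0.18; limma's adjusted p 5.51e-06, at most 0.00479 over 4 scalings), and a second probe set gave 1.55. The partners of troponin T2 in the cardiac troponin complex, Tnnc1 and Tnni3, are named here after their values were seen. Tnnc1 read 28.7 and 40.4 in the R150C line, against 54.5 and 46.4 in the WT line, and Tnni3 read 3.0 and 15.6, against 4.1 and 14.9. Neither was tested.

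Actins form the core of the thin filament. Acta2, smooth muscle alpha-actin, read 6207.1 and 6391.9 by 1416454_s_at in the R150C line, against 6659.0 and 5750.3 in the WT line. The 4 values spanned 1.16-fold and the lines overlapped, with a line effect of 0.02 (SE 0.18, limma's adjusted p 0.971). The suffix s marks probes shared between transcripts, and actin genes are close relatives, so this signal may hold other actins. The dim second probe set, 1456658_at, read 23.9 and 36.5 in the R150C line, against 28.5 and 15.8 in the WT line, and was not tested.

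Actg2, smooth muscle gamma-actin, read 181.9 and 234.7 in the R150C line, against 175.7 and 153.7 in the WT line. Its lines did not overlap, yet the difference was 0.02 under PTHrP and 0.58 without it, and the line effect of 0.30 (SE 0.19) did not pass (limma's adjusted p 0.379). Of the 11 tested member probe sets, 7 had both R150C arrays above both WT arrays, 1 had both below and 3 overlapped; of all tested probe sets 23% were above in that sense and 26.8% below.

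Tagln, transgelin, an actin-binding protein of the calponin family known as an early smooth muscle marker, read 655.0 and 723.0 in the R150C line, against 492.9 and 445.3 in the WT line. Both R150C arrays lay above both WT arrays, with differences of 0.37 under PTHrP and 0.69 without it. Its line effect of 0.53 (SE 0.18) was the nearest to a call among those that did not pass, with limma's adjusted p 0.0695 and at most 0.132 over 4 scalings. It passed in 2 alternative settings, at 0.0392 with a pseudocount of 64 and at 0.0166 with a mean-variance trend in limma.

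Myl9, the regulatory light chain whose phosphorylation starts contraction, read 1044.9 and 1079.8 in the R150C line, against 915.2 and 979.4 in the WT line. The lines did not overlap, but the line effect was 0.16 (SE 0.18, limma's adjusted p 0.668), about the same in both media (0.16 and 0.15). Myh11, the smooth muscle myosin heavy chain and the most restricted marker of that cell type, stayed between 2.7 and 3.5 in 1418122_at over the 4 arrays. Its other probe set, 1448962_at, read 5.1 and 4.0 in the R150C line, against 1.6 and 15.3 in the WT line. Myh11 thus stayed far below the filter in every array, and the values used here carry no detection call.

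Cald1, caldesmon, which binds actin and tropomyosin and restrains myosin, had 3 tested probe sets that differed in direction. By 1424769_s_at it read 2694.0 and 2952.3 in the R150C line, against 2330.4 and 2106.6 in the WT line, a line effect of 0.34 (SE 0.18, limma's adjusted p 0.285). By 1424770_at it read 273.9 and 290.9 in the R150C line, against 351.5 and 362.6 in the WT line, a line effect of -0.33 (SE 0.18, limma's adjusted p 0.29). These 2 probe sets, neither overlapping between the lines, point opposite ways, and neither passed. The third, 1424768_at, read 200.3 and 278.2 in the R150C line, against 185.3 and 493.7 in the WT line, with the WT control array well above the rest and a line effect of -0.35 (SE 0.20, limma's adjusted p 0.315). With the 3 averaged, Cald1 had a line effect of -0.09.

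Tpm1, alpha-tropomyosin, which makes muscle and non-muscle isoforms from 1 gene, was bright in 2 of its 3 probe sets. By 1423049_a_at it read 1367.9 and 1927.2 in the R150C line (PTHrP, carrier), against 1404.9 and 1884.6 in the WT line (PTHrP, control), a line effect of -0.01 (SE 0.18, limma's adjusted p 0.982). In that probe set the arrays fell into pairs by medium and not by line, as did the Gapdh 3′ to 5′ ratio, whose part in this was not tested. By 1423721_at it read 2206.2 and 2607.8 in the R150C line, against 2127.0 and 2045.2 in the WT line, a line effect of 0.19 (SE 0.18, limma's adjusted p 0.587). The third probe set stayed between 22.2 and 26.7.

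Cnn1, calponin, a late smooth muscle marker that binds actin, and Des, desmin, the intermediate filament of muscle, were dim. Cnn1 read 8.2 and 37.3 in the R150C line, against 42.1 and 14 in the WT line, so that neither line was the higher one in both media. Des 1426732_at read 57.1 and 57.0 in the R150C line, against 41.6 and 42.3 in the WT line, with differences of 0.32 under PTHrP and 0.34 without it. Des 1426731_at read 12.4 and 38.7 in the R150C line, against 8.5 and 8.0 in the WT line, where the R150C carrier array stood alone. None of these 3 probe sets was tested.

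**Figure D2:**
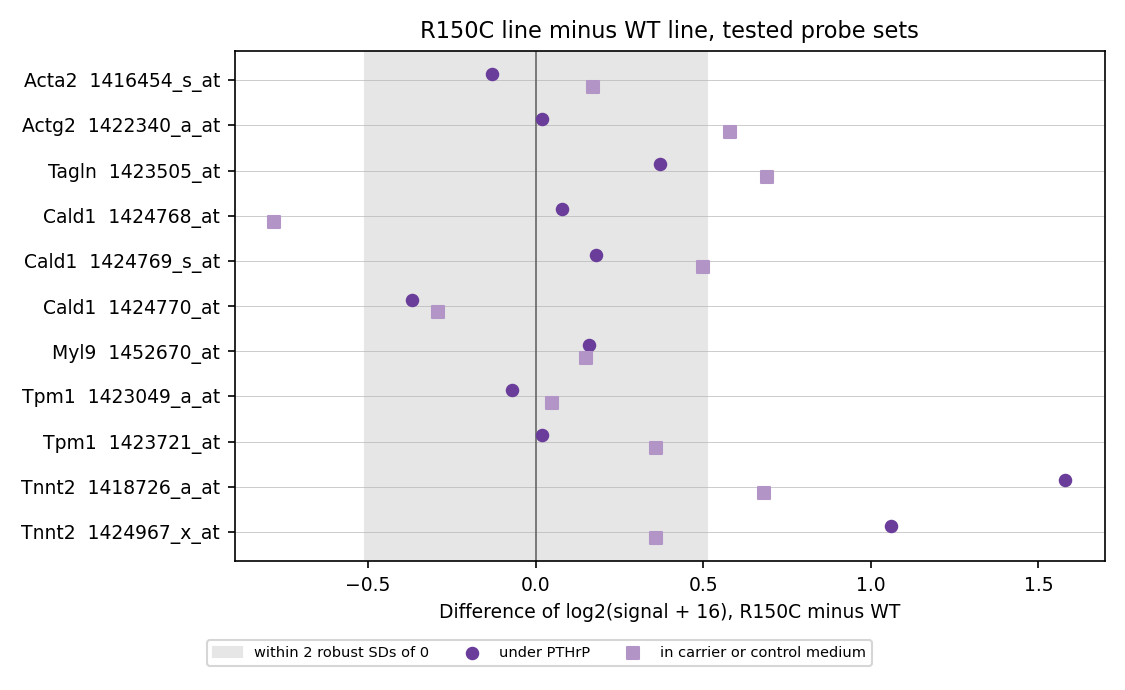
Difference between the R150C and WT lines on the log2(signal + 16) scale for the 11 tested probe sets, under PTHrP (circles) and in carrier or control medium (squares). The grey band spans 2 robust SDs of a difference (0.51) on either side of 0; both Tnnt2 probe sets exceed it under PTHrP, at 1.58 and 1.06, and the first also without it, at 0.68. Without PTHrP, Tagln (0.69), Actg2 (0.58) and Cald1 1424768_at (-0.78) lie outside the band too.

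Counted at 2-fold, 2 of the 11 tested member probe sets were higher in the R150C line under PTHrP and 0 without it, against 2.18% and 2.1% of all tested probe sets. None was 2-fold lower in either medium, against 0.854% and 1.36%. The 2 higher ones were both of Tnnt2. Without PTHrP the tested members ran from -0.78 (Cald1 1424768_at) to 0.69 (Tagln), and under PTHrP from -0.37 (Cald1 1424770_at) to 1.58.

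SRF, the factor these genes are known to depend on, was itself higher in the R150C line. Srf read 529.8 and 555.7 by 1418255_s_at in the R150C line, against 171.6 and 165.4 in the WT line. Its promoter stretch above holds 2 CArG boxes, whose part in this difference was not tested. The line effect of Srf was 1.59 (SE 0.18, limma's adjusted p 1.2e-06, at most 0.003 over 4 scalings), and 0.87 in its other probe set, 1418256_at (limma's adjusted p 0.00252). Mrtfa, an actin-sensing SRF cofactor, read 231.8 and 249.1 in the R150C line, against 204.1 and 188.6 in the WT line, a line effect of 0.26 (SE 0.18, limma's adjusted p 0.42). Mrtfb and Myocd lay below the filter, with 46.1 and 55.6 for Mrtfb in the R150C line, against 30.6 and 54.7 in the WT line. Myocd, the smooth and cardiac muscle cofactor, read 8.0 and 9.7 by its brighter probe set in the R150C line, against 1.5 and 5.9 in the WT line.

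Of 17 tested SRF cofactors and other muscle gene regulators, 6 were higher in the R150C line and 0 lower, against 5.55% and 3.77% of all tested genes by their brightest tested probe set. At an unadjusted p under 0.05 by limma the counts were 8 and 1, against 734 and 701 of 6788 tested genes. Beside Srf these included Mef2a (1.17), a MADS-box factor of muscle, and Fhl2 (1.16), a LIM protein that binds SRF. The SRF partners Elk4 (0.78) and Elk3 (0.71), both ternary complex factors, were called too, Elk3 with limma's adjusted p of up to 0.0548 over 4 scalings. The median line effect of the 17 was 0.35, beside -0.04 over the 6788 tested genes that are not contractile members. Their median difference was 0.14 under PTHrP and 0.41 without it, beside -0.07 and 0 over the 6788.

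No tested gene from further parts of the smooth muscle apparatus passed, and 16 genes of that list lay below the filter. Of 25 such genes on the array 9 were tested, with 0 higher and 0 lower by limma (unadjusted, 3 and 0) and a median of 0.16. Split by medium, the median was 0 under PTHrP and 0.36 without it. Of 33 tested cytoskeletal genes of the SRF and MRTF programme, 5 were higher and 0 lower (unadjusted, 7 and 0), with a median of 0.10. Here too the median was 0 under PTHrP, and 0.17 without it. The shares of all tested genes called were 5.55% higher and 3.77% lower. The 5 were Lima1 (1.17) and Pdlim7 (1.15), LIM proteins of stress fibres, Pdlim5 (0.91), another LIM protein, Flnc (0.65), a muscle filamin, and Vasp (0.60), an actin elongation factor. The last 2 missed the threshold in 1 or more of 4 scalings, with largest adjusted p of 0.0782 and 0.0925 by limma. Other tested probe sets of Lima1 stood at 0.07 and 0.40, and another of Pdlim7 at 0.07.

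Among 6 tested regulators of skeletal muscle, 3 were higher and 1 lower (unadjusted, 3 and 1), against 5.55% and 3.77% of all tested genes. Id1 (1.11) and Id2 (-0.98), both inhibitors of the myogenic factors, went opposite ways, and Twist2 (0.59) and Twist1 (0.58), which also restrain those factors, lost the call in 1 or more of 4 scalings (largest adjusted p 0.0974 and 0.0965 by limma). Myod1 and Myog, the factors that commit cells to skeletal muscle, lay below the filter and are named after their values were seen. Myod1 read 20.3 and 17.3 in the R150C line, against 19.4 and 18.3 in the WT line, and Myog read 12.7 and 3.9, against 3.3 and 5.5. Of 14 tested early genes of SRF and its ternary complex factors, 7 were higher and 3 lower (unadjusted, 9 and 3), with a median of 0.58. That median was alike in both media, 0.61 under PTHrP and 0.60 without it. The shares over all tested genes are the same 5.55% and 3.77%. The largest were Ccn2 (3.72), Egr2 (1.81), Ccn1 (1.64), Junb (1.60) and Fosb (1.56) among the higher, and Dusp1 (-1.64), Fos (-1.23) and Egr1 (-1.05) were the lower ones.

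**Figure D3:**
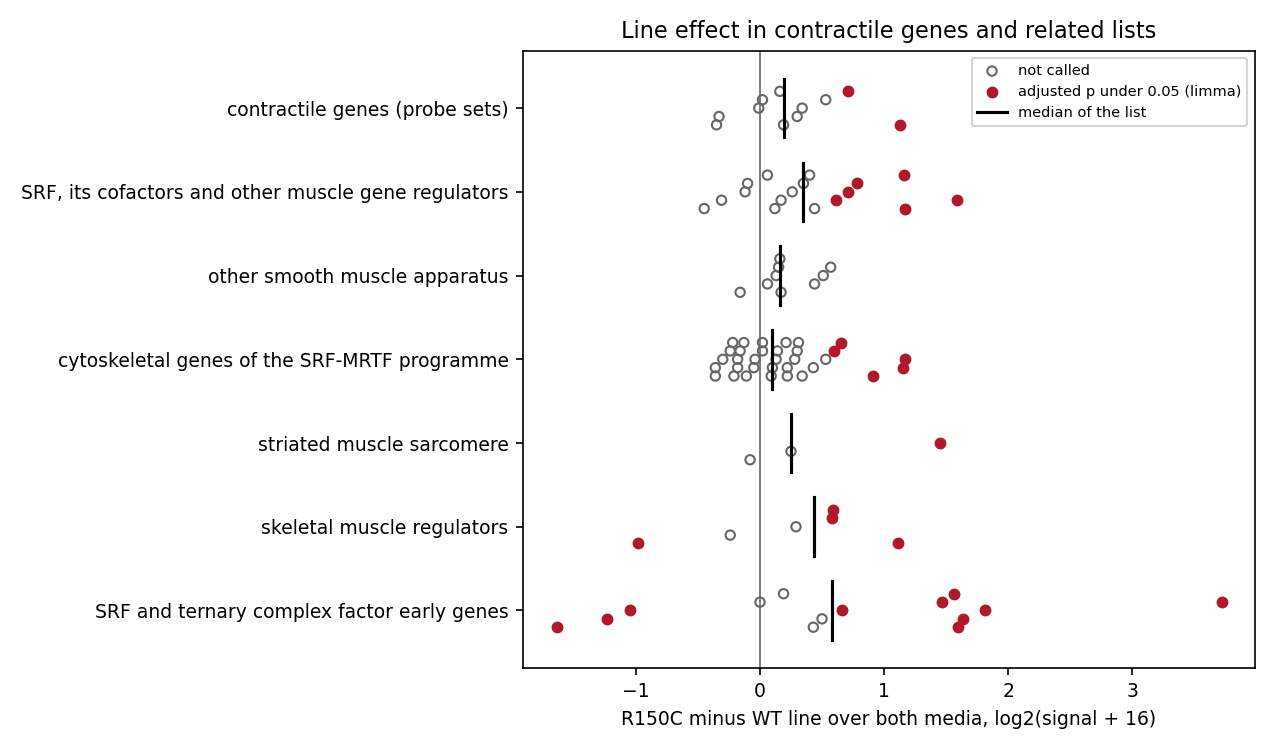
Line effect (R150C minus WT over both media, log2(signal + 16)) of the 11 tested probe sets of the contractile genes in the top row, and of the brightest tested probe set of each gene in 6 related lists. Filled points have limma's adjusted p under 0.05. Bars mark medians, 0.19 for the contractile genes and 0.35 for SRF, its cofactors and other muscle gene regulators.

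The PTHrP comparison asked what 1 h of ligand does to the same genes through each receptor. In the R150C line none of the 11 tested member probe sets was 2-fold higher or lower, against 0.118% and 0.108% of all tested probe sets. In the WT line 0 were 2-fold higher and 1 lower, Cald1 1424768_at, against 0.167% and 1.55%. The medians over the 11 were -0.12 in the R150C line and 0.01 in the WT line, beside 0.00 and 0.06 over all tested probe sets. PTHrP differences of the tested members ran from -0.48 to 0.43 in the R150C line and from -1.28 to 0.27 in the WT line.

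Cald1 1424768_at differed by -0.43 in the R150C line and -1.28 in the WT line, where the control array read 493.7. Over both lines limma gave -0.86 (SE 0.20) with an adjusted p of 0.05, just inside the threshold, and up to 0.531 over 4 scalings. The call was also lost with a pseudocount of 1 (0.104) or 64 (0.09), with no filter (0.318) and under a 75th-percentile filter (0.175), while the effect stayed between -0.93 and -0.74. It was the 1 member probe set called for PTHrP, in the lower direction, against 0.5% of all tested probe sets lower and 0.0294% higher. The high WT control value comes from the array whose beta-actin ratio of 1.42 was the lowest, and the part of that ratio in the call was not tested. The other probe sets of Cald1 differed by -0.12 and 0.20 (1424769_s_at, R150C and WT lines) and by -0.07 and 0.01 (1424770_at).

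Tpm1 1423049_a_at differed by -0.48 in the R150C line and -0.36 in the WT line, the 1 other member probe set with an unadjusted p under 0.05. Its effect over both lines was -0.42 (SE 0.18), and limma's adjusted p of 0.479 did not pass. In Tpm1 1423721_at the differences were -0.23 and 0.11, so the probe sets did not share the pattern. By medium, Acta2 1416454_s_at differed by -0.03 in the R150C line and 0.27 in the WT line, Tagln by -0.13 and 0.20, and Actg2 by -0.33 and 0.23. Myl9 differed by -0.03 and -0.04. All of these values lay within 2 robust SDs of 0.

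Tnnt2 differed after PTHrP by 0.14 in the R150C line and -0.76 in the WT line by 1418726_a_at, and by 0.43 and -0.27 by 1424967_x_at. The sign was positive in the R150C line and negative in the WT line for both probe sets. Over both lines limma gave -0.31 and 0.08, neither of which passed (adjusted p 0.774 and 0.964). Whether the responses of the lines differ was not tested, since each is a difference between 2 single arrays.

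**Figure D4:**
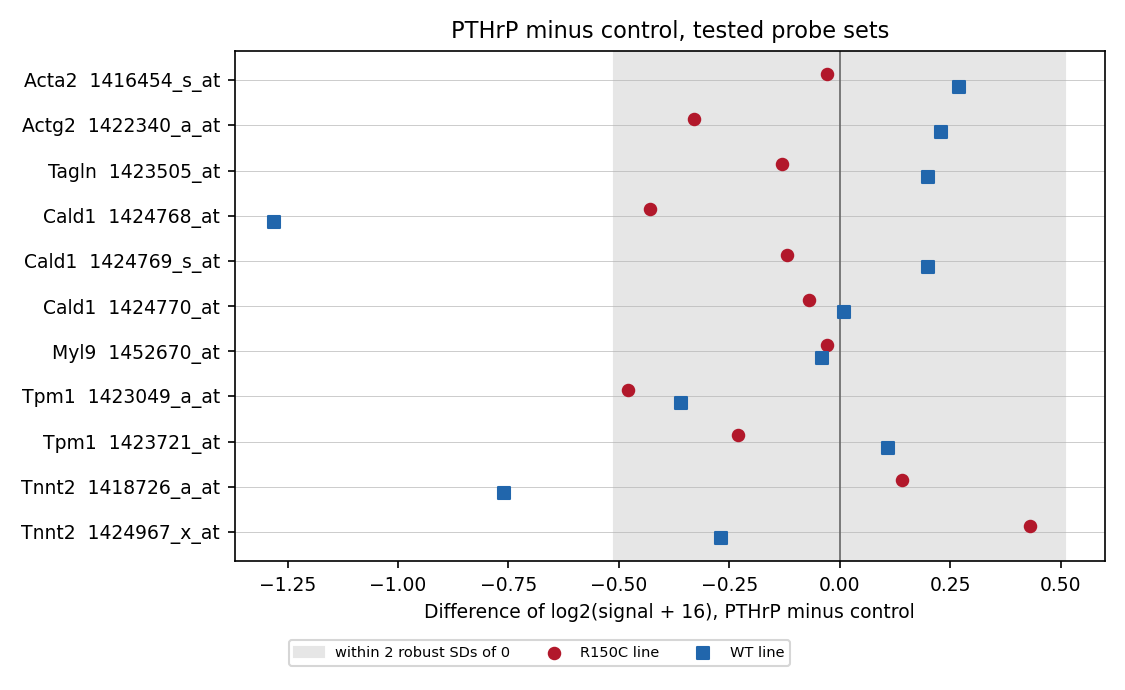
Difference between PTHrP and control on the log2(signal + 16) scale for the 11 tested probe sets, in the R150C line (circles) and the WT line (squares). The grey band spans 0.51 on either side of 0; the values outside it are those of Cald1 1424768_at (-1.28) and Tnnt2 1418726_a_at (-0.76), both in the WT line.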

How the data were processed

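The authors deposited 1 intensity per probe set and array. The submitters' processing notes name Affymetrix Expression Console; its version, its algorithm and the genome build were not given in the sources used here. After trimming 2% from both ends, all 4 arrays had a mean of 150, the mark of a global scaling. Arrays were Mouse Genome 430A 2.0, per the labels. The 64 control probe sets were left out. Of the rest, 20380 had 1 gene symbol, 691 several and 1555 none; Entrez identifiers matched the mouse gene table for 20351. Only those with 1 symbol were used.

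Values were taken as log2(signal + 16), filtered at the median, centred per array on the tested probe sets, and fitted with limma 3.58.1 in R 4.3.3. The fit was tested on simulated data. The 4 scalings are this one, the deposited values without centring, centring on all probe sets, and quantile normalization. Over tested probe sets the median PTHrP difference in the WT line was 0.17 when centred on all probe sets, against 0.06 here. Every member probe set was described, and from each list the called genes were named, at most 5 per direction, plus Srf, Mrtfa, Mrtfb and Myocd. The results of 1 list are not reported here. The members and lists were chosen with earlier results of these data known. Precision is limited by having 1 array per group.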

Additional observations from a re-analysis of the deposited data

Results flagged for a closer look

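Cnn1 differed after PTHrP by -1.13 in the R150C line and 1.01 in the WT line, opposite directions with each beyond 2 robust SDs of a difference among the tested probe sets (0.51). Its signal was 8.2 with PTHrP and 37.3 with carrier in the R150C line, and 42.1 with PTHrP and 14 in control in the WT line. The difference between the responses was not tested. The probe set lies below the filter, where such differences spread more (2 robust SDs of 0.67) and 1.95% of 10190 probe sets met this criterion, against 0.294% of the tested ones.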

How the results depend on the processing

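Tnnt2 1418726_a_at kept its direction and its call in all 10 alternatives that gave a value, from 0.77 (pseudocount 64) to 1.35 (pseudocount 1), with adjusted p of at most 0.0431 by limma; it did not pass the filter at the 75th percentile. Cald1 1424769_s_at turned to -0.09 when a gene's probe sets were averaged. The median over the tested members stayed between 0.12 and 0.28. A model with receptor as the only term was added after seeing the data. Fits without 1 array have no residual degree of freedom and give the line difference within 1 medium, printed above. No paired analysis was possible because each group has 1 array and the labels carry no replicate numbers.

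Probe sets called higher and lower between the lines (537 and 418) numbered 297 and 129 without centring, 299 and 164 under a 75th-percentile filter, 342 and 259 by brightest probe set per gene, 303 and 196 by the mean of probe sets, and 282 and 119 without the treatment term. The lower count was 200 after quantile normalization and 202 with no filter. For PTHrP over both lines, 3 were called higher and 51 lower. Both counts were 0 without centring, after quantile normalization, by brightest probe set and by the mean of probe sets (unadjusted p under 0.05 in 726, 741, 345 and 393). The higher count was 19 when centred on all probe sets, 1 with pseudocount 1, and the pair was 0 and 9 with pseudocount 64, 1 and 5 with no filter, 0 and 2 under the 75th-percentile filter, and 19 and 99 with a trend. Of tested members 2-fold higher between the lines under PTHrP (2), 1 was left with pseudocount 64, by brightest probe set and by the mean, and 0 with the stricter filter. Over all those tested, the counts in that order were 128 of 10190, 134 and 113 of 6197, and 128 of 5095. Without a filter 1 member was 2-fold lower under PTHrP and 1 higher in control medium, 1 was lower after PTHrP in the R150C line and 1 higher in the WT line. Of all 20380 probe sets, 233, 421, 124 and 157 were so, in that order. At 1.5-fold, 2 were higher and 1 lower in control medium, and 2 lower after PTHrP in the WT line. The counts over all 10190 tested probe sets were 644, 703 and 576. At 2-fold by brightest probe set or mean, 0 members were lower after PTHrP in the WT line, against 18 and 16 of 6197.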
